A study of Mus musculus with 25 samples.

Results

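The comparison described here is that of 6 wild-type (WT) mouse hearts labelled saline with 4 WT hearts labelled no pump. The 10 hearts were chosen by their sample titles from the 25 hearts of the series. The other 15 hearts come from mice labelled MCT1KO (3 without a pump, 4 with saline, 5 with Ang/PE) and from WT mice given Ang/PE (3). MCT1 is the lactate and pyruvate transporter encoded by Slc16a1, and Ang/PE is a treatment with neurohormonal agonists given to bring about hypertrophy. The series is about lactate metabolism in the hypertrophic heart, and no aim is stated for the comparison of saline with no pump. No agent is named for the no pump group, and saline is the only agent named for the saline group. The labels give neither strain, sex, age, the kind of pump nor the duration of infusion. They state that RNA came from 25 hearts, so each replicate is a separate heart, and do not say which part of each heart was taken.

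A saline-filled pump is the usual vehicle control of an infusion experiment, and animals without a pump usually have had neither the implantation surgery nor the infusion. Surgery and anaesthesia are known to raise glucocorticoids and to act on leukocytes, and the labels do not say how long before collection the pumps were implanted. A heart sample holds cardiomyocytes, endothelial cells, fibroblasts, pericytes and resident macrophages. In bulk RNA, fewer cells of a type and less RNA per cell cannot be told apart, and this holds for every cell type marker described here.

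Depth was similar in both groups. The WT no pump libraries held 18382102 to 24880683 counts and the WT saline libraries 17061622 to 19034565. Slc16a1 was at 150.3 to 233 CPM (counts scaled to 1000000 per library) without a pump and at 165 to 249 CPM with saline. In the no pump hearts labelled MCT1KO it was at 166 to 223 CPM, and in those with saline at 132 to 194 CPM. The counts per gene thus show no loss of the targeted transcript. They cannot show the loss of a single exon or a loss limited to 1 cell type. Whether the gene was deleted was therefore not tested, and these hearts are called by their label only. Xist, the RNA that coats the inactive X chromosome, was above 10 CPM in 2 of 4 no pump hearts (replicates 2 and 3) and in 1 of 6 saline hearts (replicate 6). Sex was therefore not balanced between the groups. The ventricular marker list, which holds the ventricular light chain genes Myl2 and Myl3, summed to between 15190 and 19150 CPM without a pump and between 13890 and 18480 CPM with saline, with 0 of 6 genes called.

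Part of the saline hearts carried atrial muscle RNA that the no pump hearts lacked. All 8 atrial markers had a positive log2 fold change, and 4 of them rose: Myl7 and Myl4, the atrial myosin light chains, Sln (sarcolipin, the calcium pump regulator of the atria) and Bmp10, a growth factor of atrial muscle. Sln had 0 counts in all 4 no pump hearts, and its saline mean of 51.3 CPM was at least 1392-fold higher than the level that 3 counts over the no pump group would give. Among the saline hearts Myl7 was at 0.465, 4.58, 130.7, 379, 50.1 and 178 CPM in replicates 1 to 6, against at most 0.268 CPM in a no pump heart. Saline replicates 3 to 6 were thus far above the no pump hearts, replicate 2 lay between, still well above every no pump heart, and replicate 1 was close to them. The summed level of adipocyte markers was 14.4 to 18.1 CPM without a pump and 15.5 to 90.95 CPM with saline, highest in replicate 4. All 9 had a positive log2 fold change and 0 of 9 tested members were called. The 4 lung epithelium markers were too low to be tested. The plot of summed marker levels shows these lists beside the macrophage list. The part of atrial and adipose tissue in the other results was not tested beyond the fits given below. The 4 atrial calls were lost without no pump replicate 2, 3 or 4, where the median log2 fold change of the list was 4.94, 5.14 and 4.90.

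**Figure D1:**
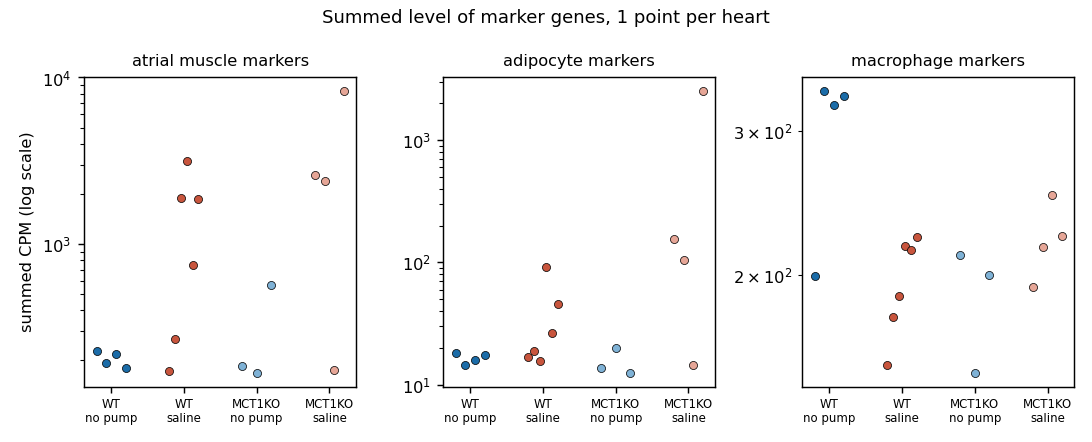
Summed CPM (log scale) of the atrial muscle, adipocyte and macrophage marker lists, with 1 point for each of the 17 hearts without Ang/PE, by group. The atrial sum was 179 to 229 CPM in the 4 WT no pump hearts and 174 to 3147 CPM in the 6 WT saline hearts, and the macrophage sum was 199 to 336.0 CPM and 155.0 to 222 CPM.

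The transcriptome of WT hearts differed between saline and no pump by many small changes. Of 17682 genes tested, 1168 (6.61%) had an adjusted p below 0.05 by the quasi-likelihood test of edgeR, 422 of them higher with saline (2.39% of the genes tested) and 746 lower (4.22%). The median log2 fold change (saline minus no pump throughout) was 0.41 among the risen genes, -0.50 among the fallen genes and 0.002 over all genes tested. Changes of at least 2-fold were few, with 33 risen and 60 fallen genes. The genes that fell included most cytosolic ribosomal protein genes, macrophage genes, subunits of mitochondrial complexes, and Fkbp5 and Cdkn1a, which glucocorticoids induce. The genes that rose included Ttn, which encodes titin, the ubiquitin ligase gene Herc2 and the chromatin remodeller gene Chd4. The CPM ranges of the groups did not overlap for 1825 genes (10.3% of those tested), which include 266 of the 422 risen and 584 of the 746 fallen genes.

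**Figure D2:**
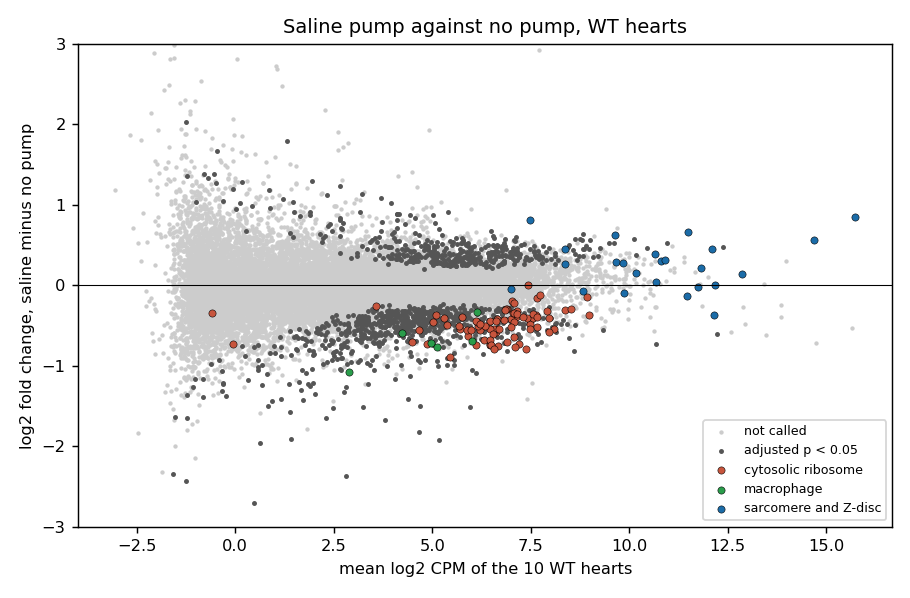
Log2 fold change, WT saline minus WT no pump (y axis), by mean log2 CPM over the 10 hearts (x axis) for 17682 genes, with called genes in dark grey and 3 gene lists in colour. Ribosomal protein genes lie below 0 except for 1, and 38 genes beyond a log2 fold change of 3 in either direction are outside the axes.

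The number of calls depended on which hearts were included. It was 60 without no pump replicate 3, 224 without replicate 4, 439 without replicate 2 and 2234 without replicate 1. Leaving out saline replicate 2, 3, 4 or 5 gave 666, 568, 640 and 649. With atrial and adipocyte scores as covariates, and with the hearts that had Myl7 above 10 CPM left out, 0 genes passed (1646 and 2766 at an unadjusted p below 0.05). The genes called in all hearts kept a median of 0.740 of their log2 fold change in the first of these fits, where 1164 of 1168 had the same sign. In the second, which keeps saline replicates 1 and 2 only, they kept 0.977, with the same sign in 1164 of 1164. The genes were called with these same hearts included, so the ratios are descriptions. Without the hearts that express Xist, 144 genes passed (14 higher and 130 lower). Every call named below is therefore absent in the fits with 0 calls. Of 76 called genes that the naming rule chose, 56 were no longer called without no pump replicate 3, 36 without replicate 4, 25 without replicate 2 and 2 without replicate 1, and 9 to 18 were lost on leaving out a saline heart. Among the 19 that passed in all 10 of these fits were Calm2, Dynlt3, Herc2, Lsm3, Ms4a4a, Ms4a6c, Pdcd10, Psma1, Rai1, Rpl23a, Rpl24, Rpl31, Rpl36a, Tlr7, Ube2e1, Zfp51, Zfp758 and Zfp931.

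The ribosomal protein genes of the cytosol held more called genes than any other of the 42 lists. These genes encode the proteins of the small (Rps) and large (Rpl) subunits of the ribosome that translates nuclear messages, and many of their transcripts begin with a run of pyrimidines through which growth signals adjust their translation. Of 81 tested members 59 fell and 0 rose (72.8%, against 4.22% fallen of all genes). The log2 fold change was negative in 80, and the list median was -0.46. The groups did not overlap for 59 of the 81 (10.3% of all genes). Summed over the list, the level was 11120, 11310, 14990 and 12810 CPM in the no pump hearts and between 8700 and 9744 CPM in the saline hearts. Every saline heart was below every no pump heart, and no pump replicate 3 was the highest.

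Among single members, Rpl31 (large subunit) was at 115, 115, 163 and 137 CPM in the 4 no pump hearts, and the saline hearts ran from 54.2 to 89.9 CPM (median 78.1). Its log2 fold change was -0.79 ± 0.14 (± SE here and below; edgeR adjusted p = 0.00797). Rps7 (small subunit) was at 153, 169, 235 and 201 CPM without a pump and had a median of 112 CPM and a maximum of 120.0 CPM with saline, and it fell by 0.77 on the log2 scale. For both genes the highest saline heart was clearly below the lowest no pump heart. Rpl36a was at 33.8, 33.9, 52.2 and 39.4 CPM without a pump and from 21.3 to 26.3 CPM (median 24.3) with saline, with a log2 fold change of -0.73 ± 0.13 (edgeR adjusted p = 0.00797). Rpl23a, Rpl24, Rps15a and Rps24 fell by 0.75, 0.49, 0.72 and 0.78 on the log2 scale. Rpl34 had the most negative value of the list, -0.89 ± 0.25 (edgeR adjusted p = 0.0378). The genes that did not pass include Rps2, Rpl3 and Rpl3l. These 3 and Rps7, Rps15a, Rps24 and Rpl34 were picked after their values were seen. Rps2, of the small subunit, had a log2 fold change of -0.15 ± 0.13. Rpl3 had -0.31 ± 0.17, and Rpl3l, its paralogue expressed in striated muscle, had 0.00 ± 0.30. Many of these genes have processed pseudogenes that share their sequence, so reads may have been divided between copies and single values are uncertain.

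The ribosomal count changed with the fit more than its median did. It was 6 without no pump replicate 3, 27 without replicate 4, and 19 with per-library offsets for GC content and transcript length, while the medians were -0.37, -0.46 and -0.33. In the hearts with Myl7 below 10 CPM the median was -0.53 with 0 members called. With atrial and adipocyte covariates it was -0.44 with 0 called, and without the hearts that express Xist it was -0.40 with 15 called. With Xist as a covariate 37 members were called.

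Because these genes moved together, the start sites in the RefSeq promoter table (mouse build GRCm38.p6) were searched for a pyrimidine tract, defined as a C followed by at least 4 bases that are each C or T, starting within 10 bases of the annotated start on the gene's own strand. Of the 81 tested ribosomal protein genes 59 matched the table by symbol, and 37 of these (62.7%) held the tract. The share was 37.6% of 11415 matched genes tested and 34.4% of all 27025 genes in the promoter table. The tract was present in 26 of 42 members that fell and in 11 of 17 that were not called (61.9% and 64.7%). Members that fell and members that did not thus held it at nearly the same share.

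Windows are shown for 4 fallen genes that held the tract, taken in order of p, so they do not represent genes without it. They run from 20 bases before to 20 bases after the annotated start, 5′ to 3′ on the gene's strand, with the tract in capitals:
Rpl36a, chrX:134585634-134585673, plus strand: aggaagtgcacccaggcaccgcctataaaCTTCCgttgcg
Rpl31, chr1:39367831-39367870, plus strand: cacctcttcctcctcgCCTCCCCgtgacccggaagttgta
Rps7, chr12:28635934-28635973, minus strand: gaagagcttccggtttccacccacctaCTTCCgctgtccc
Rps15a, chr7:118116128-118116167, minus strand: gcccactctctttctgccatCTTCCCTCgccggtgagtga
The tract lies at an offset of 0 bases from the annotated start in Rps15a, of -4 in Rpl31, of 7 in Rps7 and of 9 in Rpl36a.

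Some nuclear genes for mitochondrial proteins, several of them small subunits, fell with saline. Of 77 nuclear genes for the respiratory chain and ATP synthase, the complexes that pass electrons to oxygen and make ATP, 16 fell and 0 rose (20.8%, against 4.22% fallen of all genes), with a median log2 fold change of -0.26. Cox7b, a subunit of cytochrome c oxidase, was at 482, 523, 589 and 593 CPM in the no pump hearts and from 272 to 344 CPM (median 316) with saline. Its log2 fold change was -0.81 ± 0.17 (edgeR adjusted p = 0.0114). Cox7a2, another subunit of this enzyme, was at 249, 271, 291 and 292 CPM and from 146 to 186 CPM (median 166), with a log2 fold change of -0.73 ± 0.15. The groups were separate for both genes. Ndufb4, a subunit of complex I, fell by 0.67, and Atp5j2, a subunit of ATP synthase, by 0.61 on the log2 scale. The number of fallen members was 0 without no pump replicate 3, 2 without replicate 4, 10 without replicate 2, and 8, 7 and 7 without saline replicates 3, 5 and 6. With GC and length offsets it was 3, with a median of -0.09.

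The ribosome inside mitochondria, which translates the messages of the mitochondrial genome, showed the same direction in part of its genes. Of its 78 protein genes 13 fell and 0 rose (16.7%, against 4.22% fallen of all genes), with a median log2 fold change of -0.15. Mrpl42 was at 113, 112, 128 and 127 CPM without a pump and from 61.3 to 90.5 CPM (median 70.03) with saline, and its log2 fold change was -0.75 ± 0.16 (edgeR adjusted p = 0.014). Mrps18c, Mrpl32 and Mrpl30 fell by 0.62, 0.60 and 0.58. The count was 5, 0 and 1 without no pump replicates 2, 3 and 4, and 0 with GC and length offsets. Of 38 proteasome genes, which encode the protease that degrades ubiquitin-tagged proteins, 7 fell and 0 rose (18.4%). Psma1, a subunit of its catalytic core, was at 81.4, 85.5, 88.9 and 93.7 CPM and from 53.4 to 63.4 CPM (median 58.7), with a log2 fold change of -0.57 ± 0.11 (edgeR adjusted p = 0.00915). The median of the proteasome list was -0.05, and it was 0.02 with GC and length offsets, where 0 members were called. That count was 4 without saline replicate 4 or 5 and without no pump replicate 2, and 1 without no pump replicate 3 or 4.

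In the no pump hearts 14.8% to 18.4% of all counts came from the mitochondrial genome, and in the saline hearts 8.94% to 14.8%. The lowest no pump heart (replicate 2) and the highest saline heart (replicate 1) had almost the same share. Of 30 tested mitochondrially encoded genes, many of them for short RNAs (median length 139.5 bases), 3 fell and 0 rose (4.22% of all genes fell). Their median log2 fold change was -0.50. With GC and length offsets the median was 0.05, so its direction was not kept there. Without no pump replicate 3 and 4 the count was 0 and 1. mt-Atp6, a subunit of ATP synthase, was at 176, 57.9, 185 and 80.4 CPM in the no pump hearts and from 27.3 to 53.9 CPM (median 45.3) with saline, with a log2 fold change of -1.51 ± 0.36 (edgeR adjusted p = 0.0213). No pump replicates 1 and 3 were high and replicate 2 was close to the saline hearts. mt-Co3, a subunit of cytochrome c oxidase, fell by 0.92, and mt-Atp8, a further ATP synthase subunit, by 0.99. These 3 genes have near-identical copies in the nuclear genome, so their counts are uncertain. mt-Co1, the catalytic subunit of cytochrome c oxidase, was at 72450, 53380, 62610 and 71490 CPM and from 33300 to 58330 CPM (median 43610), with overlapping groups and a log2 fold change of -0.53 ± 0.20 that did not pass (edgeR adjusted p = 0.106). It was picked after its values were seen.

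Of the genes for lactate and pyruvate handling 2 of 22 fell and 0 rose, with a median log2 fold change of -0.03 against 0.002 over all genes. The called share of 9.09% was near the 6.61% of all genes. Mpc1, 1 of the proteins that form the mitochondrial pyruvate carrier, was at 191, 176, 180.4 and 206 CPM in the no pump hearts and from 90.3 to 155 CPM (median 127) with saline. Its log2 fold change was -0.61 ± 0.14 (edgeR adjusted p = 0.0158), and the groups did not overlap. The copy Mpc1-ps, picked after its values were seen, had -0.62 ± 0.17, so reads may be shared between them. Dld, the lipoamide dehydrogenase shared by the pyruvate and 2-oxoglutarate dehydrogenase complexes, was at 409, 375, 356 and 395 CPM and from 232 to 335 CPM (median 282), with a log2 fold change of -0.42 ± 0.13 (edgeR adjusted p = 0.0489). Its call was close to the threshold and was lost in 20 of 31 other fits, against 7 of 31 for Mpc1. Slc16a1 itself had a log2 fold change of -0.03 ± 0.13 (edgeR adjusted p = 0.924).

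Of 24 genes for fatty acid uptake and oxidation, Cd36, the membrane fatty acid transporter, fell and no other was called. It was at 2087, 2142, 2234 and 2425 CPM in the no pump hearts and from 1218 to 1499 CPM (median 1296) with saline, with a log2 fold change of -0.73 ± 0.19 (edgeR adjusted p = 0.0263). The saline hearts were all lower, without overlap. The list median was 0.02, and its called share was 4.17%, against 6.61% of all genes. Fabp3, the fatty acid carrier of muscle cytosol, was at 2089, 1798, 2054 and 2171 CPM and from 1151 to 1683 CPM (median 1368), and did not pass (log2 fold change -0.56 ± 0.19, edgeR adjusted p = 0.0776). It was picked after its values were seen. In the TCA cycle 0 of 13 genes were called. In glucose uptake, glycolysis and glycogen 0 of 25 were called, of which 20 had a positive log2 fold change and the median was 0.19. Hk2, a hexokinase of muscle, came nearest to the threshold with 0.52 ± 0.18 (edgeR adjusted p = 0.076).

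Macrophage transcripts were lower in the saline hearts. All 6 macrophage markers had a negative log2 fold change, 4 fell (4.22% of all genes fell), and the median was -0.71. Their summed level was 199, 336.0, 323 and 331.5 CPM in the no pump hearts and 155 to 222 CPM in the saline hearts. No pump replicate 1 lay within the saline range, and the other 3 no pump hearts were above all saline hearts. Cd68, a lysosomal protein of macrophages, was at 5.19, 14.7, 7.39 and 21.9 CPM and from 4.17 to 6.76 CPM (median 6.12), and fell by 1.07 on the log2 scale (edgeR adjusted p = 0.0204). C1qb and C1qa, subunits of complement C1q that resident macrophages make, fell by 0.76 and 0.72, and Mrc1, the mannose receptor, by 0.70. Csf1r, the receptor that keeps macrophages alive, did not pass at -0.33 ± 0.14 (edgeR adjusted p = 0.154), nor did Adgre1, which encodes F4/80, at -0.59 ± 0.21 (adjusted p = 0.0898). The count of fallen markers was 0 without no pump replicate 2 or 4, 1 without replicate 3, 6 without replicate 1, and 2 without saline replicate 2 or 3. With GC and length offsets it was 0, with a median of -0.66, and it was 1 with Xist as a covariate. Without the hearts that express Xist it was 0, with a median of -0.58.

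Tlr7 and Ms4a4a were named by the size of their p, and Ms4a6c and Ifi205 by that of their fold change. Tlr7, the endosomal receptor for single-stranded RNA, was at 5.14, 13.8, 12.6 and 10.9 CPM in the no pump hearts, and the saline hearts ran from 3.198 to 3.97 CPM (median 3.81). Its log2 fold change was -1.52 ± 0.26 (edgeR adjusted p = 0.00797). All 6 saline hearts were close together and below no pump replicate 1, which in turn was below the other 3. Ms4a4a, a membrane protein of alternatively activated macrophages, was at 3.07, 7.503, 6.44 and 6.11 CPM and from 1.07 to 1.96 CPM (median 1.601), with a log2 fold change of -1.91 ± 0.33 (edgeR adjusted p = 0.00797). Ms4a6c was at 5.73, 13.4, 11.9 and 8.31 CPM and from 2.73 to 4.26 CPM (median 2.94), with -1.65 ± 0.29. Ifi205, an interferon-inducible gene of the DNA sensor family, was at 17.1, 27.6, 44.5 and 26.2 CPM and from 5.19 to 11.8 CPM (median 8.95), and fell by 1.67. The groups did not overlap for these 4 genes. Tlr7, Ms4a4a and Ms4a6c also passed with GC and length offsets, at -1.33, -1.52 and -1.40. Members of the Ms4a cluster are similar in sequence, so their counts may not be fully separate.

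Further macrophage genes were picked after their values were seen, so their shared direction adds no support. Tlr8, the neighbouring RNA sensor on the X chromosome, had -1.30 ± 0.25, and Cd163, the haemoglobin scavenger receptor, -0.94 ± 0.21. Fcgr2b and Fcgr3, receptors for the Fc part of antibodies, had -0.93 ± 0.18 and -1.05 ± 0.18. Folr2 and F13a1, which mark resident macrophages, had -0.60 ± 0.17 and -0.68 ± 0.16. All 6 of these passed. Lyve1, which marks a perivascular subset and lymphatic endothelium, was at 17.9, 37.9, 44.95 and 18.9 CPM and from 12.3 to 17.1 CPM (median 14.4), without overlap, and did not pass (edgeR adjusted p = 0.0506). Timd4, the receptor of long-lived resident macrophages, was at 1.99, 2.14, 2.398 and 1.98 CPM and from 1.14 to 2.37 CPM (median 1.78), with -0.26 ± 0.30 (edgeR adjusted p = 0.652).

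Among the markers of cell types other than macrophages and atrial muscle 1 gene was called. In the fibroblast list 0 of 6 were called, with a median of -0.44, and its summed level was 759 to 1565 CPM without a pump and 597 to 1179 CPM with saline. In the endothelial list 0 of 6 were called with a median of 0.09. Pdgfrb, the receptor that marks pericytes, rose by 0.27 on the log2 scale (edgeR adjusted p = 0.032). It was the only call among 6 smooth muscle and pericyte markers (16.7%, against 6.61% of all genes). Rgs5, another pericyte marker, had -0.41 ± 0.16 (edgeR adjusted p = 0.118) without overlap. The other 5 members of the list were positive, with Myh11 at 0.97 without overlap, and the list median was 0.43. The summed level of the list had a median of 977 CPM without a pump and 844 CPM with saline, so sum and median differed in direction. Red blood cell markers, which follow the blood left in a sample, had 0 of 5 called and a median of -0.46. In the Schwann cell (3 tested), mesothelium (5) and skeletal muscle (2) lists 0 genes were called. The lymphocyte and neutrophil list summed to at most 2.485 CPM in any of the 10 hearts, with 0 of 4 tested members called.

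Fkbp5 and Cdkn1a, which glucocorticoids induce, fell with saline, and both differed widely among the no pump hearts. Of 14 glucocorticoid response genes these 2 fell and 0 rose (14.3%, against 4.22% fallen of all genes), 13 had a negative log2 fold change, and the median was -0.68. Fkbp5, a chaperone of the glucocorticoid receptor and a standard readout of its activity, was at 41.9, 126, 146 and 33.2 CPM in the no pump hearts and from 16.7 to 27.98 CPM (median 22.8) with saline. No pump replicates 2 and 3, both Xist-positive, were several times above all other hearts of the 2 groups. Saline replicate 6, also Xist-positive, was within the low saline range. The part of sex was not tested for this gene. The log2 fold change was -1.93 ± 0.55 (edgeR adjusted p = 0.0418). Cdkn1a, the cell cycle inhibitor p21, was at 62.4, 95.8, 60.1 and 18.2 CPM and from 9.28 to 23.3 CPM (median 16.1), with -1.82 ± 0.46 (edgeR adjusted p = 0.0261), and no pump replicate 4 lay within the saline range. Without the Xist-expressing hearts 0 members of the list were called and its median was -0.33. Leaving out no pump replicate 2 or 3, or saline replicate 2 or 4, gave 0 calls, leaving out saline replicate 1, 3, 5 or 6 gave 1, and leaving out no pump replicate 1 gave 5.

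Fam107a, an actin-associated gene that stress hormones induce and that is outside that list, had the largest fall among called genes with a mean log2 CPM above 1, -2.36 ± 0.56 (edgeR adjusted p = 0.0204). It was at 12.3, 28.5, 32.5 and 7.51 CPM without a pump and from 1.94 to 5.12 CPM (median 4.04) with saline. No pump replicates 2 and 3 were the highest, as for Fkbp5. Hif3a, a regulator of the hypoxia response, was at 4.24, 8.57, 8.74 and 3.06 CPM and from 1.32 to 3.77 CPM (median 2.26), and fell by 1.43 on the log2 scale (edgeR adjusted p = 0.0323). Bnip3, a mitophagy receptor that hypoxia induces, was at 138, 183, 161 and 136 CPM and from 82.5 to 116 CPM (median 89.5), with -0.72 ± 0.16 (edgeR adjusted p = 0.0135) and no overlap. These were the only calls among 13 hypoxia genes (15.4%, against 6.61% of all genes), and the list median was -0.04. Map3k6 and Zbtb16 were also highest in no pump replicates 2 and 3 and were picked after their values were seen. Map3k6, a kinase of stress signalling, was at 33.9, 64.8, 73.3 and 28.3 CPM and from 13.9 to 20.2 CPM (median 18.2) and passed, and Zbtb16, a transcription factor that glucocorticoids induce, was at 150.2, 418, 479 and 241 CPM and from 99.2 to 166 CPM (median 110.0) and did not (edgeR adjusted p = 0.0563).

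Numbered zinc finger protein genes (Zfp followed by a number), most of which encode DNA-binding repressors, held the fallen genes of smallest p. Zfp758 (ENSMUSG00000044501) was at 15.8, 15.2, 14.9 and 13.9 CPM in the no pump hearts and from 7.06 to 8.37 CPM (median 7.59) with saline, with a log2 fold change of -0.97 ± 0.14 (edgeR adjusted p = 0.00781). Zfp931 was at 7.94, 8.67, 8.64 and 9.87 CPM and from 3.899 to 5.64 CPM (median 4.91), with -0.84 ± 0.13. Both genes had closely spaced values within each group and a wide gap between the groups. Zfp51 and Zfp260 fell by 0.76 and 0.53. Of 323 tested members of the class 31 fell and 3 rose, against 4.22% and 2.39% of all genes, and the median was -0.09. The number that fell was 18, 3 and 10 without no pump replicates 2, 3 and 4. With GC and length offsets only Zfp758 was called, at -0.59, and Zfp931, Zfp51 and Zfp260 had -0.28, -0.46 and -0.38. The median GC content of the class was 44.5%, against 49.04% for all genes tested.

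Other genes were among the 12 that fell with the smallest p. Pdcd10, a protein of the cerebral cavernous malformation complex that stabilises endothelial junctions, was at 14.98, 16.4, 18.3 and 18.01 CPM and from 8.83 to 10.97 CPM (median 10.2), and its log2 fold change was -0.76 ± 0.12 (edgeR adjusted p = 0.00797). It was the only call among 9 genes of that complex and its partners (11.1%, against 6.61% of all genes). Calm2, a gene for calmodulin, the calcium sensor that activates CaM kinase, was at 62.1, 71.6, 68.8 and 67.2 CPM and from 38.2 to 47.9 CPM (median 43.3), with -0.64 ± 0.11 (edgeR adjusted p = 0.00797). Dynlt3, a dynein light chain, Lsm3, of the ring that binds U6 RNA, and Ube2e1, a ubiquitin-conjugating enzyme, fell by 0.71, 0.67 and 0.52. Hspe1, the mitochondrial chaperonin partner, fell by 0.57 (edgeR adjusted p = 0.0494), the only call among 17 heat shock and endoplasmic reticulum stress genes. The called share of that list was 5.88%, near the 6.61% of all genes. Of 57 histone genes 4 fell, among them H3f3a for the replication-independent histone H3.3, by 0.46, and 50 were negative. The called share of the histones, 7.02%, was near the 6.61% of all genes. The histone count was 0 without no pump replicate 3 and 2 without no pump replicate 4 or saline replicate 1 or 4.

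Among the 12 risen genes of smallest p, Herc2 (ENSMUSG00000030451), a giant ubiquitin ligase of DNA repair, was at 176, 161, 154 and 155 CPM in the no pump hearts and from 202 to 225 CPM (median 215) with saline, with a log2 fold change of 0.41 ± 0.08 (edgeR adjusted p = 0.00797). Ubr4, another giant ubiquitin ligase, was at 423, 343, 331 and 319 CPM and from 492 to 551 CPM (median 518), with 0.56 ± 0.12. Chd4, the remodelling ATPase of the NuRD complex, was at 237, 195, 203 and 194 CPM and from 272 to 304 CPM (median 281), with 0.46 ± 0.10. In these genes no saline heart overlapped a no pump heart, and the rise amounted to 1.33-fold, 1.47-fold and 1.38-fold. In the lowest of 31 other fits their log2 fold changes were 0.16, 0.24 and 0.27. Rai1, a chromatin-associated regulator, and Tnrc18, a chromatin protein, rose by 0.43 and 0.55. Ints1, of the Integrator complex that cleaves nascent RNA, rose by 0.50, and Gemin5, which loads small nuclear RNA onto splicing particles, by 0.37. Rbm19 and Nol6, which process the precursor of ribosomal RNA in the nucleolus, rose by 0.40 and 0.50. Uhrf1bp1, a lipid transfer protein, and Zzef1, a zinc finger and EF-hand protein, rose by 0.49 and 0.40. In the HERC family list 1 of 5 genes was called.

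In the contractile apparatus the gene for the giant protein titin rose. Of 24 sarcomere and Z-disc genes 2 rose and 0 fell, 18 were positive, and the median was 0.27. The called share of 8.33% was near the 6.61% of all genes. Ttn, which encodes titin, the molecular spring that spans the sarcomere, was at 50660, 39480, 31190 and 33930 CPM in the no pump hearts and from 63240 to 79740 CPM (median 67840) with saline. Its log2 fold change was 0.85 ± 0.19 (edgeR adjusted p = 0.0158). It was higher in every saline heart than in any no pump heart. Myh6, the main myosin heavy chain of the adult mouse heart, was at 28410, 21250, 17840 and 17800 CPM and from 28320 to 34170 CPM (median 31400) and stood at the threshold without passing it (edgeR adjusted p = 0.0502). It was picked after its values were seen. Neither sarcomere call was made without no pump replicate 3, without replicate 4, without the Xist-expressing hearts or with GC and length offsets, while 6 members were called without replicate 1.

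A pair of calcium release genes moved in opposite directions. Ryr2, the calcium release channel of the sarcoplasmic reticulum, was at 5383, 4993, 3582 and 3818 CPM and from 5704 to 6642 CPM (median 6340), and rose by 0.48 (edgeR adjusted p = 0.0492). Trdn, which encodes triadin, a protein that anchors calsequestrin to this channel, was at 319, 279, 296 and 324 CPM and from 179.7 to 236 CPM (median 203), and fell by 0.55 (edgeR adjusted p = 0.0267). Neither gene had overlapping groups. They were the only calls among 15 calcium handling genes (13.3%, against 6.61% of all genes). The call of Ryr2 was lost in 25 of 31 other fits. Of 16 channel and gap junction genes 1 rose and 0 fell (6.25%, near the 6.61% of all genes), and 15 were positive. Wif1, a secreted Wnt inhibitor, was at 3.47, 1.27, 1.498 and 2.79 CPM and from 4.76 to 6.66 CPM (median 5.34), and Akap5, an anchor of protein kinase A, at 4.74, 3.02, 2.398 and 5.36 CPM and from 4.31 to 12.3 CPM (median 9.51). Among the genes named by size these had the largest rises after the atrial genes, 1.30 ± 0.27 and 1.23 ± 0.33 (edgeR adjusted p = 0.0114 and 0.0323).

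Other risen genes were picked one by one after their values were seen, so they stand for no pathway and their shared roles are no result. Gata4, Nkx2-5 and Tbx20, transcription factors of cardiomyocyte identity, rose by 0.57, 0.52 and 0.43. Mtor and Rptor, subunits of the growth kinase complex mTORC1, rose by 0.44 and 0.40, and Tsc2, which restrains it, by 0.35. Dst, Plec and Macf1, giant proteins that link cytoskeletal filaments, rose by 0.52, 0.58 and 0.38. Hspg2, Lamb2 and Agrn, large proteins of the basement membrane, rose by 0.46, 0.56 and 0.36. Polr2a, the largest subunit of RNA polymerase II, was at 101, 70.3, 80.2 and 83.9 CPM without a pump and from 107 to 121 CPM (median 118) with saline, and rose by 0.48.

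Lists of cardiac load, fibrosis, inflammation and rapid response had 0 genes called. Among 12 load and injury markers Nppb, the B-type natriuretic peptide, was at 290.0, 256, 541 and 198 CPM in the no pump hearts and from 99.1 to 166 CPM (median 153) with saline, without overlap and with a log2 fold change of -1.21 ± 0.47 (edgeR adjusted p = 0.118). Nppa, the atrial natriuretic peptide, was at 89.3, 72.7, 130.5 and 58.6 CPM and from 44.5 to 1459 CPM (median 714), and its 4 highest saline hearts were the 4 with the highest Myl7. The matrix and fibrosis list had 0 of 31 called and a median of -0.0037. The inflammation and interferon lists had 0 of 15 each, with medians of -0.13 and -0.17, and in the interferon list 14 were negative. Of 19 clock genes 0 were called (median 0.19), and time of collection is not given. Nr4a1, an immediate early gene and orphan receptor, was at 31.9, 11.7, 9.69 and 6.06 CPM and from 40.9 to 73.7 CPM (median 58.05), with 1.93 ± 0.75 (edgeR adjusted p = 0.12), and 14 of the 17 immediate early genes were positive with 0 called. The cell cycle list, at low levels, had 0 of 12 called, 11 negative and a median of -0.49. In angiotensin and adrenergic signalling 0 of 16 were called. Adrb1, the main cardiac beta receptor, came nearest at 0.58 ± 0.19 (edgeR adjusted p = 0.0634). In SR proteins and hnRNPs, the factors of splicing, 1 of 30 rose and 1 fell, and of 15 small nucleolar RNAs 1 rose. Each of these lists had a called share of 6.67%, near the 6.61% of all genes.

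**Figure D3:**
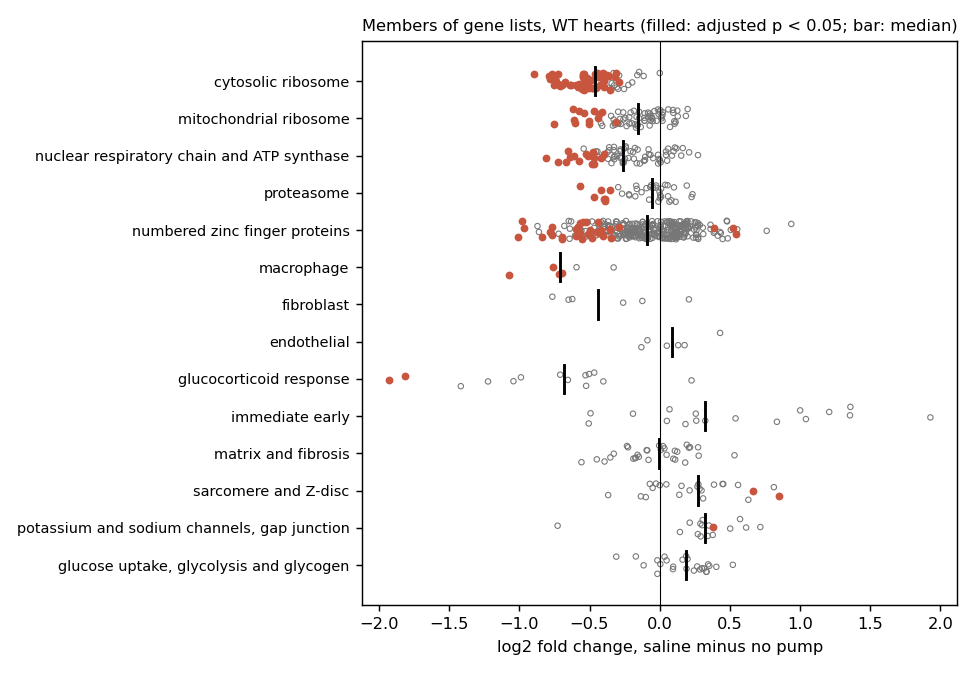
Log2 fold change, WT saline minus WT no pump (x axis), for every tested member of 14 gene lists (y axis); filled points are called and the black bar is the list median. Of 81 cytosolic ribosome genes 59 are filled on the left of 0 with a median of -0.46, and the matrix and immediate early lists have no filled point.

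The fold changes followed the base composition and length of the transcripts. Risen genes had a median GC content of 54.05% and a median length of 5188 bases, fallen genes 43.3% and 2464 bases, and all tested genes 49.04% and 3080 bases. Across 12821 genes above a mean log2 CPM of 1, Spearman's rho of the log2 fold change with GC content was 0.41 and with length 0.23. Genes share the libraries in which they were measured, so these values are descriptions. Genes were divided into 5 equal bins. In the bin of lowest GC content 1 gene rose and 366 fell, and in the highest bin 167 rose and 37 fell. In the bin of shortest transcripts 12 rose and 274 fell, and in the longest 200 rose and 62 fell. The gradient was visible heart by heart. The median level of the highest GC bin minus that of the lowest, relative to the mean of the 10 hearts, was -0.07, -0.21, -0.20 and -0.24 (log2) in the no pump hearts. It was -0.06 in saline replicate 1 and 0.09 to 0.22 in the other 5. With offsets fitted to GC content and length in each library 101 genes passed (16 higher and 85 lower), 92 of them among the 1168, and the called genes kept their direction in 1157 cases with a median of 0.61 of their size. The cytosolic ribosome genes were short (median length 1059 bases) but not low in GC content (median 51.1%). The part of composition in the named results was not tested beyond this fit.

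**Figure D4:**
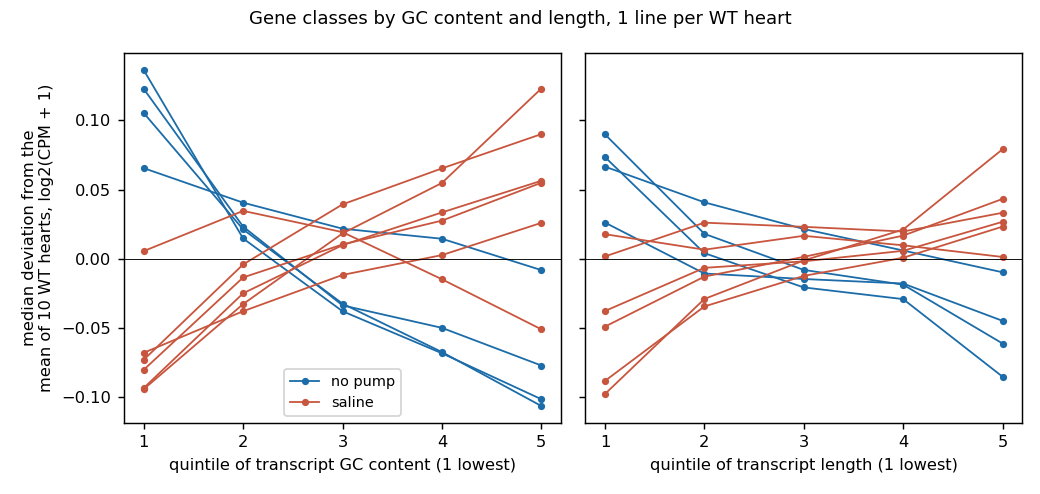
Median deviation of log2(CPM + 1) from the mean of the 10 WT hearts (y axis) in 5 bins of transcript GC content (left) and length (right), with 1 line per heart. All 4 no pump hearts slope down with GC content and 5 of 6 saline hearts slope up, with differences between the outer bins of -0.24 to -0.07 and 0.09 to 0.22.

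Hearts labelled MCT1KO gave another comparison of saline (4) with no pump (3), which shares no heart with the WT comparison. Xist-positive hearts were 0 of 3 without a pump and 3 of 4 with saline, the opposite imbalance to that of the WT hearts, so sex and treatment can hardly be told apart in this comparison, and the interaction depends on both. In it 1 gene passed (0.00566%), and of the 1168 genes called in WT hearts 635 (54.4%) had the same sign, against 51.5% of all genes. The shares were 189 of 422 for the risen and 446 of 746 for the fallen genes. Median log2 fold changes of the WT-called genes in these hearts were -0.02 for the risen and -0.04 for the fallen. The cytosolic ribosome list had a median of 0.01 there and the macrophage list 0.25. The nuclear respiratory chain (-0.19), mitochondrially encoded (-0.61) and atrial (5.97) lists had the sign they had in WT hearts. So did the mitochondrial ribosome (-0.15) and proteasome (-0.11) lists. The zinc finger (0.02) and sarcomere (-0.19) lists had the opposite sign.

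The difference between the genotypes was tested as an interaction. It was called for 1 gene, Abcb1a (0.00566% of those tested), which encodes a drug efflux pump of capillary endothelium, and 3044 genes had an unadjusted p below 0.05. Among the WT-called genes the smallest adjusted p of the interaction was 0.112. Unadjusted p was below 0.05 for 301 of the 422 risen and 454 of the 746 fallen genes, for 60 of 81 ribosomal genes and for all 6 macrophage markers (17.2% of all genes), and 0 of these passed. The called genes were chosen by the WT contrast, which is part of the interaction, so their high shares follow in part from that choice. The ribosomal and macrophage lists are given here for their WT changes, so the same holds for them. These shares are therefore no support for a difference between the genotypes. DESeq2 called 371 genes in this test, and leaving out single hearts gave 663 without WT no pump replicate 1, 69 without MCT1KO no pump replicate 1, 14 without WT saline replicate 6, 3 without WT no pump replicate 4 and at most 1 without any of the other 13. Without the Xist-expressing hearts 1748 genes passed, but that fit has 1 MCT1KO saline heart (replicate 4), which is assumed to vary like the others and whose atrial and adipocyte sums were 8274 and 2519 CPM. A response that is particular to WT hearts was thus not shown at the adjusted threshold.

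The values of single hearts labelled MCT1KO lay on both sides. Ttn was at 44750, 76850 and 80710 CPM in no pump replicates 1 to 3 and at 67970, 69200, 43810 and 43070 CPM in saline replicates 1 to 4. Tlr7 was at 6.67, 3.63 and 3.98 CPM in no pump replicates 1 to 3 and at 4.86, 4.51, 9.44 and 3.83 CPM in saline replicates 1 to 4. For Fkbp5 the levels were 39.99, 18.3 and 35.8 CPM in no pump replicates 1 to 3 and at 16.7, 19.1, 70.6 and 20.4 CPM in saline replicates 1 to 4. For Ttn no pump replicates 2 and 3 were at the level of the WT saline hearts, and saline replicates 3 and 4 were at that of the WT no pump hearts. For Tlr7 the same no pump replicates were low and saline replicate 3 was high. For Fkbp5 no pump replicate 2 was low, and saline replicate 3 was above every other of the 7 hearts. Saline replicate 3 also had little atrial RNA (Myl7 0 CPM, against 237, 244 and 1357 CPM in replicates 1, 2 and 4). Saline replicate 4 had a ventricular marker sum of 4307 CPM, against 14270, 14380 and 16400 CPM in saline replicates 1 to 3. The part of this tissue difference in its Ttn level was not tested. The plot of 9 genes by heart shows both genotypes side by side. Whether these hearts carry the treatment of their label was not tested.

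**Figure D5:**
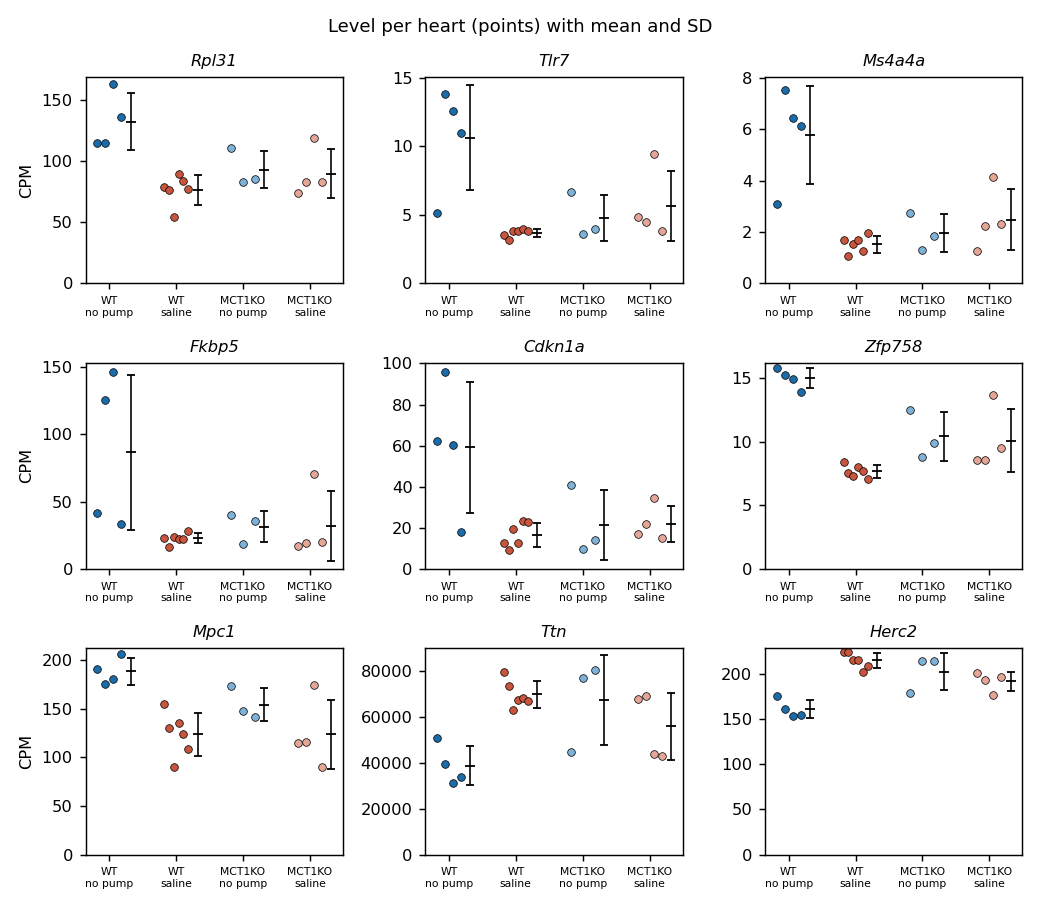
CPM (y axis) of 9 genes with 1 point per heart and the mean with SD for the WT and MCT1KO groups without a pump and with saline. In WT hearts Rpl31, Zfp758, Mpc1, Ttn and Herc2 are separated between the groups, while Cdkn1a overlaps in 1 no pump heart at 18.2 CPM.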

How the data were processed

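RNA of 25 mouse hearts was depleted of ribosomal RNA and made into strand-specific libraries, per the labels' protocols. The authors deposited one table of raw read counts per gene for 56941 genes. STAR 2.7.9a, cutadapt 1.16, featureCounts 1.6.3, DESeq2 1.42.1 and the build GRCm39 are named in the submitters' processing notes, and the strand setting and annotation are not given in the sources used here. Hearts were grouped by their labels.

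The counts were fitted with edgeR 4.0.16 (R 4.3.3, quasi-likelihood, robust, TMM scaling) in all 25 hearts and 6 groups, after filterByExpr left 17682 genes, with 19 residual degrees of freedom. The contrasts were saline minus no pump in WT hearts, the same in hearts labelled MCT1KO, and their difference. A gene was called at a Benjamini-Hochberg adjusted p below 0.05 over all genes tested. Standard errors came from the log2 fold change and its F statistic. CPM values are counts scaled to 1000000 per TMM-scaled library. The code was tested on simulated data.

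The members and the 42 gene lists (13 of markers, 29 of biology) were chosen with earlier results of these data known. Named genes are called genes with a symbol and a mean log2 CPM above 1: the 12 risen and 12 fallen of smallest p, the 6 of each with the largest change, and up to 4 called members of each list of smallest p or, with none called, 2 given by values only. All marker genes and Slc16a1, Xist, Ddx3y and Abcb1a also belong to them. Other names were added after their values were seen, and results for 5 genes are not reported here. Symbols (51948 genes), GC content and transcript length (97.1% of genes tested) came from GENCODE M21, and promoters from RefSeq, both on GRCm38, so no gene coordinates of the count table are given. Alternatives were RLE size factors, DESeq2 1.42.0, no filter, only the groups compared, a replicate block, a non-robust fit, mitochondrial genes removed, Xist or tissue covariates, GC and length offsets (mgcv 1.9.3), thinning and leaving out each heart. Restriction to hearts with Myl7 below 10 CPM was chosen after seeing the data. No libraries were duplicates: the smallest chi-square per degree of freedom between hearts of a group was 9.80. Counting error and variation between hearts both enter the test, and the common biological coefficient of variation was 0.196.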

Additional observations from a re-analysis of the deposited data

Results flagged for a closer look

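In 160 tests of single hearts against the rest of their group, 9 values lay apart by Dixon's criterion, where chance alone gives about 1 in 20. All values are log2(CPM + 1). Among the no pump hearts, replicate 1 was low for the complement genes C1qa (4.872, others 5.582 to 5.644) and C1qb (5.01, others 5.703 to 5.844) and for the summed macrophage markers (7.646, others 8.341 to 8.397). No pump replicate 2 was low for H3f3a (6.925, others 7.115 to 7.152). Among the saline hearts, replicate 6 was low for Akap5 (2.409, others 3.309 to 3.739) and high for Ms4a6c (2.396, others 1.90 to 2.023). Saline replicate 3 was low for Rpl31 (5.787, others 6.275 to 6.506), replicate 2 for Fam107a (1.558, others 2.291 to 2.612) and replicate 1 for Uhrf1bp1 (5.158, others 5.263 to 5.321).

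Abcb1a was the only gene whose response to saline differed between WT hearts and hearts labelled MCT1KO by the edgeR interaction test, with a difference of 0.81 on the log2 scale (adjusted p = 0.0285). Its log2 fold change was 0.21 in WT hearts and -0.60 in hearts labelled MCT1KO. The call was lost with only the groups compared, with Xist or tissue covariates and with GC and length offsets. It was also lost without WT no pump replicate 3 or WT saline replicate 1, 2, 3 or 5. The same held without MCT1KO no pump replicate 2 or 3, or MCT1KO saline replicate 2, 3 or 4. Xist-positive hearts were unevenly spread over the 4 groups, in opposite directions in the 2 genotypes.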

How the results depend on the processing

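The number of genes called between saline and no pump in WT hearts was 1168. It was 1949 with DESeq2, 509 with no low-count filter, 2287 with only the groups compared, 589 with Xist as a covariate, 144 in hearts without Xist, 0 with atrial and adipose covariates, 101 with GC and length offsets and 0 in hearts with Myl7 below 10 CPM. With RLE size factors, the non-robust fit, mitochondrial genes removed or thinning it was 1071 to 1175. Leaving out 1 heart at a time gave 60 to 2234. The interaction, called for 1 gene, gave 371 with DESeq2, 3 with no filter, 0 with only the groups compared, 0 with Xist as a covariate, 1748 in hearts without Xist, 0 with GC and length offsets, and 0 with Myl7 below 10 CPM. The fits without Xist and with Myl7 below 10 CPM each hold 1 MCT1KO saline heart (replicate 4 and replicate 3), assumed to vary like the others, so they are not replicated interactions. Leaving out 1 heart gave 0 to 663. At an unadjusted p below 0.05 these fits with 0 calls held 1646 and 2766 genes for the WT comparison and 2258 to 3047 for the interaction. The log2 fold change of Slc16a1, -0.03 and not called, was 0.12 with tissue covariates, 0.069 with GC and length offsets and 0.13 with Myl7 below 10 CPM, and leaving out 1 heart gave -0.15 to 0.040. Fallen members of the cytosolic ribosome, respiratory chain, mitochondrial ribosome and zinc finger lists, 59, 16, 13 and 31, were 64, 37, 26 and 47 with only the groups compared, 37, 5, 5 and 26 with Xist as a covariate, and 15, 6, 2 and 5 in hearts without Xist. The causes were not tested.

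The replicate block called 656 genes in WT hearts and 0 in the interaction (2573 unadjusted), and with GC and length offsets it called 43 and 6. Slc16a1 was then at 0.064 and 0.17, and the median of the mitochondrially encoded genes was 0.15 in the second. Same-numbered hearts had correlations of -0.15 to 0.10 and matched their own number best in 1 of 4 cases. No pairing by number was seen, but 4 pairs cannot settle whether the hearts were paired.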
